A study of Homo sapiens with 20 samples.

Results

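The genes described here are CCND1, CCND2, CCND3, MAF, NSD2, FGFR3 and ITGB7, which carry or answer to the rearrangements of multiple myeloma. They are 7 of 20033 protein-coding genes on chromosomes 1 to 22, X and Y, and were listed for these roles, with no measured value in the rule. A region of a peak list was counted for a gene when it overlapped its GRCh38 gene body or the 50 kb on either side by at least 1 base. The study mapped transcription factors and their coactivators by chromatin immunoprecipitation sequencing (ChIP-seq) in cell lines treated with vehicle (DMSO) or with 1 µM AU-15330, a PROTAC that degrades SMARCA2 and SMARCA4, the ATPases of the mSWI/SNF chromatin remodeling complex. The labels give 4 to 6 hours of treatment, and 6 hours in the titles of the HA libraries of NCI-H1048. Of 20 peak lists, 8 came from the multiple myeloma cultures MM1.S and NCI-H929, both with antibodies to POU2AF1, a coactivator of octamer-binding POU factors in B cells, and to IRF4, a transcription factor on which myeloma cells depend. The other 12 lists came from 2 lines of the POU2F3 subtype of small cell lung cancer (SCLC-P) and were used as a control of another tumor and other proteins. NCI-H526 carried POU2F3 antibody, HA-POU2F3 and HA-POU2AF2 pairs, and NCI-H1048 carried POU2F3 antibody, HA-POU2F3 and an additional pair labelled HA with no protein given. By the study's methods the HA proteins were degradable constructs introduced by lentivirus into cells whose own gene had been knocked out.

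Chromosomal translocations that place a gene beside the immunoglobulin heavy chain enhancer are founding events in many myelomas. MM1.S is known for such a rearrangement at MAF, and NCI-H929 for one at the NSD2 and FGFR3 locus. The D-type cyclins CCND1, CCND2 and CCND3 activate CDK4 and CDK6, which phosphorylate RB and open the way to DNA replication, and one or another of them is raised in nearly every myeloma. MAF is a bZIP transcription factor whose known targets include CCND2 and ITGB7, NSD2 methylates histone H3 at lysine 36, FGFR3 is a receptor tyrosine kinase, and ITGB7 encodes an integrin beta subunit that holds plasma cells in the marrow and gut. None of this background was measured here, since the lists hold binding and not expression, and the positions below are those of the reference genome and not of the rearranged chromosomes.

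Each condition was 1 library, so no difference below has a replicate check and no p-value is given. Lists held between 1327 and 89902 regions on these chromosomes. Exact 95% intervals cover counting error only. Fold is the enrichment that the peak caller gave for a region over its surroundings. A level is the number of reads stacked at a region's summit divided by the genome-wide background of the library. Local background is the mean coverage around the region in the same unit, or 1, the genome background, where that mean was lower. A local background of 1 is therefore a floor. Levels and local backgrounds were recovered exactly from the deposited fold and p-value in 18 of the 20 lists. A wide enriched stretch and an extra copy of the DNA cannot be told apart in the local background.

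The windows were annotated with GENCODE 44. CCND1 (ENSG00000110092.4) lies on the plus strand at chr11:69641156-69654474, CCND2 (ENSG00000118971.9) on the plus strand at chr12:4269771-4305353, and CCND3 (ENSG00000112576.13) on the minus strand at chr6:41934934-42050357. MAF (ENSG00000178573.7) lies on the minus strand at chr16:79585843-79600737, with no other protein-coding gene in its window. NSD2 (ENSG00000109685.19, chr4:1871393-1982207) and FGFR3 (ENSG00000068078.20, chr4:1793293-1808872) are both on the plus strand, and their windows overlap by 37.5 kb, so a region at the LETM1 promoter counts for both. ITGB7 (ENSG00000139626.16) lies on the minus strand at chr12:53191323-53207282. The other windows also hold promoters of neighboring genes, LTO1 in that of CCND1, TIGAR in that of CCND2, MED20, BYSL, USP49 and TAF8 in that of CCND3, NELFA in that of NSD2, and ZNF740, RARG and MFSD5 in that of ITGB7.

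Sequences of GRCh38, plus strand, are shown for 6 sites that separate the tumors or carry the letters that a bound factor is known to prefer. Each is 101 bases centered on the summit of 1 list. Capitals mark a match to the octamer core TTTGCAT that POU factors read, to GGAANNGAAA (ETS-IRF composite) or to GAAANNGAAA (tandem IRF), on either strand. The octamer lines show the intergenic sites upstream of MAF (NCI-H929 POU2AF1) and FGFR3 (NCI-H526 POU2F3) and an NSD2 intron that only SCLC-P lists held. The IRF lines show another site upstream of MAF (MM1.S IRF4), an ITGB7 intron (MM1.S IRF4) and the sequence just upstream of ITGB7 (NCI-H929 IRF4).
MAF, 28 kb upstream, chr16:79628680-79628780: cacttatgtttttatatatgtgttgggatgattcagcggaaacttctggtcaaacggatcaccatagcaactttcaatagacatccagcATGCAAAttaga
FGFR3, 26 kb upstream, chr4:1767128-1767228: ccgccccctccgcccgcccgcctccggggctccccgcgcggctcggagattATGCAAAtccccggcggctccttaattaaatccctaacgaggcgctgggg
NSD2, intron, chr4:1933877-1933977: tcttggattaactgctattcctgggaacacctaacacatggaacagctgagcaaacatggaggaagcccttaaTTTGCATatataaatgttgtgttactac
MAF, 5 kb upstream, chr16:79606035-79606135: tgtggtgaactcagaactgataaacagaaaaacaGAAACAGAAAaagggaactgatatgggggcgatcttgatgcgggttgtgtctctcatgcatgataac
ITGB7, intron, chr12:53200531-53200631: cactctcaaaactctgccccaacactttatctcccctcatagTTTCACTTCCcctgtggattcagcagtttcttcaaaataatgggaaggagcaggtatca
ITGB7, 2 kb upstream, chr12:53209045-53209145: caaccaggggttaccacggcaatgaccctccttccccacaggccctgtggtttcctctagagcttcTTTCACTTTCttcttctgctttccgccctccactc

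With DMSO all 7 genes had at least 1 region in each of the 4 myeloma lists, which most genes did. A region lay in the window of 89.3% of all protein-coding genes in the MM1.S POU2AF1 list, 85.4% in MM1.S IRF4, 87.2% in NCI-H929 POU2AF1 and 94.6% in NCI-H929 IRF4. Among SCLC-P DMSO lists, all 7 genes had a region in the NCI-H526 POU2F3 list (94.2% of all genes), the NCI-H526 HA-POU2F3 list (91.0%) and the NCI-H1048 POU2F3 list (85.4%). The NCI-H526 HA-POU2AF2 list held a region for 6 of the 7 genes (83.7%), and the NCI-H1048 HA-POU2F3 list (63.8%) and the unnamed HA list (63.0%) for 3 each. Presence of a region therefore set these genes apart from other genes in no list. Windows of the plasma cell markers IRF4, PRDM1, XBP1, TNFRSF17, SDC1 and POU2AF1 held a region for 6 of 6 genes in the 4 myeloma DMSO lists, but also in the NCI-H526 POU2F3 list, so such windows do not tell the lines apart. Windows of the tuft cell markers POU2F3, AVIL, GFI1B, PTGS1, TRPM5 and POU2AF2 held one for 6 of 6 genes in that list and for 5 or 6 in the myeloma DMSO lists.

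The number of regions separated the ITGB7 window from those of the other members. The MM1.S POU2AF1 list held 14 regions in the ITGB7 window, the MM1.S IRF4 list 8, the NCI-H929 POU2AF1 list 10 and the NCI-H929 IRF4 list 10. In regions per kb this placed ITGB7 at percentiles 99.8, 97.2, 98.4 and 94.5 among all gene windows of these lists. CCND1, CCND2, CCND3, MAF, NSD2 and FGFR3 held between 1 and 8 regions each, at percentiles from 27.6 to 88.8. In SCLC-P DMSO lists ITGB7 had no more than 3 regions, but with AU-15330 the NCI-H1048 POU2F3 list held 7, at percentile 90.7. The ITGB7 window also holds 5 other genes. Over the 4 myeloma DMSO lists 12 regions lay on the ITGB7 body and 30 in its flanks. The percentiles do not allow for the density of genes in a window. Over all 7 windows, the lists held 42, 23, 32 and 47 regions in the same order, a density per Mb 3.6, 2.17, 3.37 and 2.26 times that of the genome, whereas the 6 SCLC-P DMSO lists stood between 0.623 and 1.65. With AU-15330 the myeloma lists stood between 1.58 and 3.34, and the highest SCLC-P list, NCI-H1048 POU2F3, at 2.14, so the ranges of the tumors overlapped there. The genome baseline includes sequence far from genes, so these ratios do not measure an excess over other genes. Windows of all protein-coding genes held means of 3.88, 3.28, 3.26 and 5.65 regions in the 4 myeloma DMSO lists. The lists also differed in promoter share, for example 33.5% in MM1.S POU2AF1 and 13.8% in NCI-H526 POU2F3. Its part in the contrast between tumors was not tested. The myeloma and SCLC-P lists also came from different proteins, so tumor and protein cannot be told apart in this contrast.

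**Figure D1:**
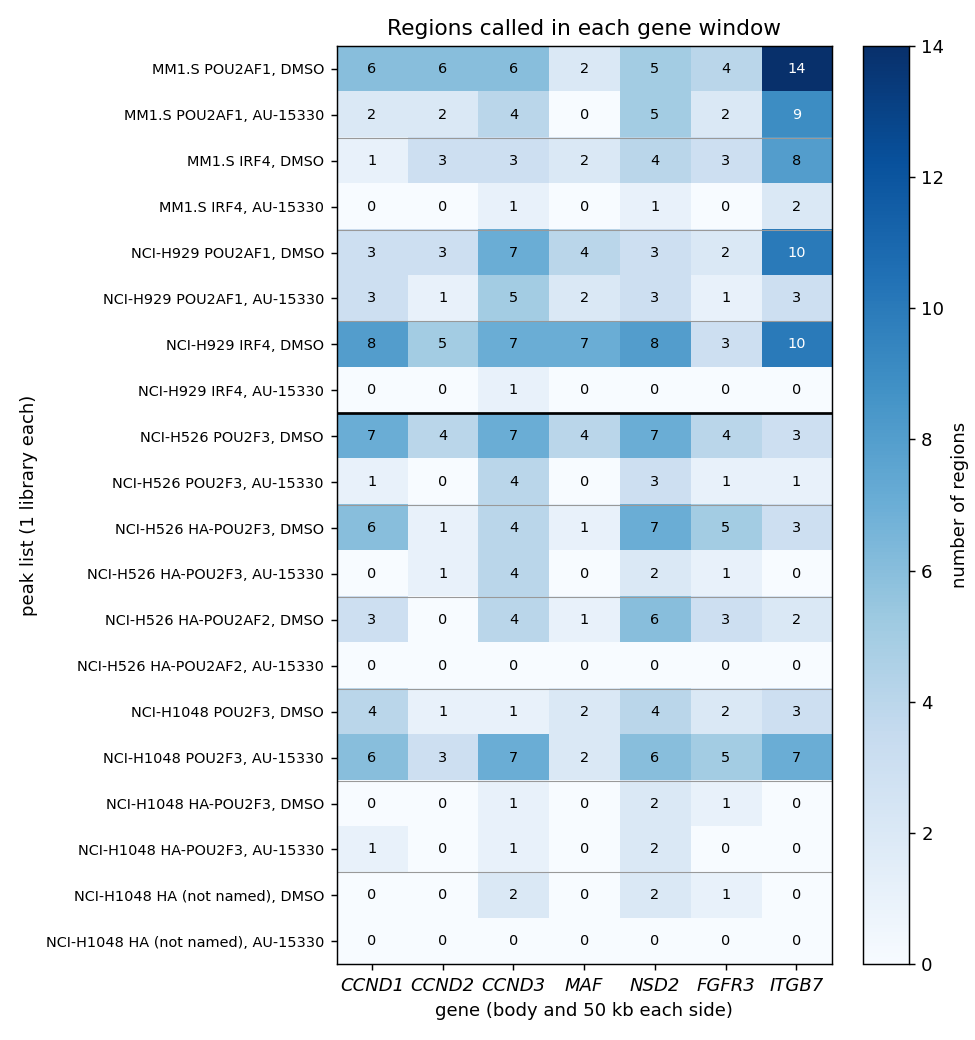
Number of regions in the window (gene body and 50 kb each side) of each gene (columns) in each of the 20 peak lists (rows, 1 library each), with the myeloma lists above the black line. The ITGB7 column is the darkest in the 4 myeloma DMSO rows, with 14, 8, 10 and 10 regions.

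Overlapping regions of the 20 lists merged into 111 distinct sites. Of these, 43 were in myeloma lists alone, 40 in SCLC-P lists alone and 28 in both. Sites were not merged in this way over other genes, so the site counts here have no background and do not set these genes apart. Sites at promoters of neighboring genes were the most widely shared, with 11 of 14 in both tumors, against 7 of 16 at transcript starts of the 7 genes and 10 of 81 elsewhere. A promoter site here is one whose strongest summit lies within 1 kb of any annotated protein-coding transcript start, including starts inside a gene. Of 66 sites with a myeloma DMSO region, 34 were held by both lines, 11 by MM1.S alone and 21 by NCI-H929 alone, and 11 were in all 4 lists. ITGB7 had 12 sites held by both lines, 3 by MM1.S alone and none by NCI-H929 alone. MAF had 3 sites in both and 6 in NCI-H929 alone, and CCND2 was the least shared, with 2 in both, 5 in MM1.S alone and 4 in NCI-H929 alone. The NCI-H929 IRF4 list was the largest of the 4, with 65176 regions against 33327 in MM1.S IRF4.

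The share of regions found in the other line stood above that of the whole lists by point estimate. Of the 42 MM1.S POU2AF1 regions 23 were overlapped by a NCI-H929 region, 54.8% (exact interval 38.7 to 70.2) against 44.0% of the whole list. Of the 32 NCI-H929 POU2AF1 regions 24 were overlapped in MM1.S, 75.0% (56.6 to 88.5) against 54.6%. For IRF4 the shares were 78.3% (18 of 23, 56.3 to 92.5) of MM1.S regions against 65.1%, and 36.2% (17 of 47, 22.7 to 51.5) of NCI-H929 regions against 32.5%. The NCI-H929 POU2AF1 interval alone lay wholly above its background, and with windows of 10 kb it no longer did (10 of 16, 35.4 to 84.8). Promoters made up more of the member regions than of the lists, for example 57.1% against 33.5% in MM1.S POU2AF1 and 62.5% against 37.6% in NCI-H929 POU2AF1, and their part in this sharing was not tested.

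Within 1 line, POU2AF1 and IRF4 regions met in the windows about as in the whole lists. An IRF4 region overlapped 17 of 42 MM1.S POU2AF1 regions, 40.5% (25.6 to 56.7) against 48.8%, and 20 of 32 NCI-H929 POU2AF1 regions, 62.5% (43.7 to 78.9) against 71.3%. In the other direction, a POU2AF1 region overlapped 18 of 23 MM1.S IRF4 regions, 78.3% (56.3 to 92.5) against 55.6%, and 20 of 47 NCI-H929 IRF4 regions, 42.6% (28.3 to 57.8) against 32.6%. The MM1.S IRF4 interval lay above its background by less than 1 percentage point, and the other 3 intervals held theirs.

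MAF, the gene rearranged in MM1.S, had its strongest myeloma site 28 kb upstream of its start, in intergenic sequence at chr16:79628327-79629026. All 4 myeloma DMSO lists held this site and no SCLC-P list did. The fold was 8.94 for POU2AF1 and 5.01 for IRF4 in MM1.S, and 10.2 and 9.76 in NCI-H929. The levels were 12.5 (exact interval 8.3 to 18.0), 6.84 (3.83 to 11.3), 23.1 (17.4 to 30.1) and 32.3 (25.6 to 40.3). NCI-H929, the line without the known MAF rearrangement, thus had the higher IRF4 level with intervals that did not overlap, while the POU2AF1 intervals overlapped. The NCI-H929 IRF4 list as a whole was larger than that of MM1.S, with 65176 against 33327 regions. Its median fold was also higher, 4.91 against 4.38, and the part of these differences between libraries was not tested. With AU-15330 only NCI-H929 POU2AF1 kept a region at this MAF site, at a level of 18.6 (13.2 to 25.6). The octamer match of the printed sequence lay within 100 bases of the POU2AF1 summits of both lines.

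The MAF promoter differed between the lines in the same direction. A site just upstream of the start (chr16:79600742-79601432) was called for both proteins in NCI-H929, at folds of 4.44 for POU2AF1 and 4.49 for IRF4, and in no MM1.S list. The adjoining site in untranslated sequence of the gene held POU2AF1 in both lines, at folds of 4.34 in MM1.S and 4.08 in NCI-H929, and was kept with AU-15330 in NCI-H929 alone (4.2). Local background at the MAF start was 3.24 for NCI-H929 POU2AF1, 4.06 for NCI-H929 IRF4 and 2.63 for MM1.S POU2AF1. MAF sites numbered 9 in myeloma lists, and the MM1.S lists held 2 regions for each protein with DMSO and 0 with AU-15330. The tandem IRF site 5 kb upstream was an IRF4 site of both lines, at folds of 5.64 in MM1.S and 4.26 in NCI-H929. A further site at chr16:79576573-79577262, beyond the 3′ end of MAF, was held by 3 SCLC-P lists at folds up to 9.94 and by no myeloma list.

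CCND2, a cyclin gene that MAF is known to activate, had different distal sites in the lines. In MM1.S the strongest was intergenic, 24 kb upstream at chr12:4245504-4245793, with POU2AF1 at a fold of 6.71 and no region in any other list. In NCI-H929 the strongest was an IRF4 site inside a CCND2 intron at chr12:4293405-4293829, with a fold of 7.96 and a level of 14.7 (10.3 to 20.4), again in no other list. The strongest NCI-H929 POU2AF1 region of the window, at chr12:4261656-4261855 upstream of the gene, had a fold of 5.39 and was in no other list. A site downstream of the gene, at chr12:4312283-4312760 in a TIGAR intron, held both proteins in NCI-H929, at folds of 7.18 for IRF4 and 4.34 for POU2AF1, and neither in MM1.S. Both lines shared the TIGAR promoter (chr12:4320711-4321526), where the 4 DMSO folds ran from 5.13 to 6.12 and both POU2AF1 lists kept a region with AU-15330. The CCND2 promoter itself (chr12:4269211-4269613) carried POU2AF1 at 2.92 and IRF4 at 3.53 in MM1.S and IRF4 alone at 3.02 in NCI-H929, and all 3 regions were lost with AU-15330.

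These low promoter folds stood on a raised local background. At the CCND2 promoter and 2.92 and 7.45 kb inside the gene the MM1.S POU2AF1 list had local backgrounds of 5.21, 6.84 and 5.96, against a list median of 1.48 and a 99th percentile of 4.81, and 0.265% of its regions stood as high as 6.84. The MM1.S IRF4 list had 3.41 at the promoter, matching its 99th percentile of 3.41. NCI-H929 IRF4 had 2.57 there, its 90th percentile, and NCI-H929 POU2AF1 had no region to measure. MM1.S therefore had wide coverage over the first part of CCND2 that a fold over the surroundings does not show. With AU-15330 the nearest MM1.S POU2AF1 region, 2.41 kb inside the gene, had a local background of 4.68.

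CCND1, the cyclin gene most often joined to the heavy chain locus in myeloma, had the strongest region of all 7 windows. It lay at the LTO1 promoter, 34.2 kb from the CCND1 start, at chr11:69674991-69675841, so it was close to another gene. POU2AF1 had a fold of 14.5 in MM1.S, rank 173 of its list, and 8.17 in NCI-H929, with levels of 36.6 (29.1 to 45.4) and 19.7 (14.4 to 26.3). IRF4 had folds of 3.8 and 5.22. AU-15330 left POU2AF1 at 18.0 (12.6 to 25.1) in MM1.S and 25.0 (18.6 to 32.9) in NCI-H929 and removed both IRF4 regions. The POU2AF1 level was thus lower in treated than in untreated MM1.S, whereas the NCI-H929 intervals overlapped.

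At CCND1 itself, a promoter site (chr11:69640805-69641380) was held by POU2AF1 in both lines, at folds of 3.08 in MM1.S and 4.18 in NCI-H929, and by IRF4 in NCI-H929 at 3.15. It was also held by 5 SCLC-P lists. Local background over the start and first intron ran from 2.89 to 3.17 in MM1.S POU2AF1 and from 3.67 to 4.58 in NCI-H929 POU2AF1. In NCI-H929 IRF4 it ran from 3.88 to 3.99. The lines could be compared here for POU2AF1 alone, and at the CCND2 promoter for IRF4 alone. MM1.S IRF4 had no region at the CCND1 gene, its only region in the window being at LTO1. An intergenic site beyond LTO1 (chr11:69685760-69686271) had the highest NCI-H929 IRF4 fold of the window, 6.38, and MM1.S POU2AF1 at 5.35. The IRF4 lists differed most at CCND1, with 1 region in MM1.S and 8 in NCI-H929, in lists of 33327 and 65176 regions.

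CCND3, the broadly expressed D-type cyclin, differed little between the lines. Of its 8 sites with a myeloma DMSO region, 6 were held by both lines and 3 by all 4 lists. The strongest, between MED20 and BYSL (chr6:41920765-41921903), had folds of 6.33 and 4.77 for POU2AF1 and 5.92 and 7.31 for IRF4 in MM1.S and NCI-H929, and 7 SCLC-P lists held it as well. An internal transcript start (chr6:41941418-41942233) had POU2AF1 folds of 4.95 in MM1.S and 6.43 in NCI-H929, and IRF4 folds of 4.59 and 4.61. The 5′ end, which faces that of TAF8, lay in the site chr6:42050292-42051267 at POU2AF1 folds of 5.17 and 6.15. CCND3 kept 4 of 6 POU2AF1 regions in MM1.S and 5 of 7 in NCI-H929 with AU-15330, all at transcript starts of CCND3 or its neighbors.

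NSD2, the histone methyltransferase gene rearranged in NCI-H929, had a site at its 5′ end (chr4:1870071-1871710) in all 4 myeloma DMSO lists. The POU2AF1 level was 27.2 (20.8 to 34.9) in MM1.S and 8.13 (4.89 to 12.7) in NCI-H929, although the folds were close at 5.76 and 5.99. The local backgrounds were 4.36 and 1.0. IRF4 went the same way, with 2.59 at the higher of its 2 summits in MM1.S and 1.11 in NCI-H929. Coverage around the NSD2 start was therefore raised in MM1.S and little or not raised in NCI-H929, where the POU2AF1 value of 1.0 is the floor. Inside the gene, 32.2 kb from the start, NCI-H929 POU2AF1 had a region with a local background of 3.51 and a fold of 2.5 (chr4:1903228-1903701), and no MM1.S list had a region there. Of the NCI-H929 POU2AF1 regions 4.05% stood that high, and of the MM1.S POU2AF1 regions 1.49% stood as high as 4.36. With AU-15330 both sites were kept by POU2AF1, at local backgrounds of 3.36 at the MM1.S start and 2.68 inside the gene in NCI-H929. The NCI-H929 IRF4 region nearest to the inner site, at chr4:1899182-1899536 with DMSO, had a local background of 1.46.

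Other transcript starts in the window held both lines. An internal NSD2 start (chr4:1899182-1899536) held MM1.S IRF4 at 5.9, MM1.S POU2AF1 at 4.52 and NCI-H929 IRF4 at 3.94. The NELFA promoter (chr4:2008740-2009781) had POU2AF1 folds of 7.24 and 6.37, was kept in both lines with AU-15330 and was held by 7 SCLC-P lists. The NSD2 intron of the printed octamer sequence (chr4:1933639-1934172) was held by 7 SCLC-P lists, at folds from 3.14 to 5.4, and by no myeloma list. The LETM1 promoter (chr4:1855781-1856847), in the windows of both NSD2 and FGFR3, held MM1.S POU2AF1 at 4.85, MM1.S IRF4 at 5.09 and NCI-H929 IRF4 at 4.64, and 5 SCLC-P lists. The octamer intron was chosen after its values were seen.

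FGFR3, the receptor gene beside NSD2, had between 2 and 4 regions in each myeloma DMSO list, at percentiles from 37.5 to 69.8 among all gene windows. Its promoter (chr4:1792978-1793872) was called with DMSO for POU2AF1 (4.69) and IRF4 (4.47) in MM1.S and for neither in NCI-H929, where POU2AF1 had a region with AU-15330 (4.0). NCI-H929 IRF4 had a DMSO region nearby, 1.66 kb inside the gene (chr4:1794569-1795103), at a fold of 3.67. An internal transcript start held NCI-H929 POU2AF1 at 3.95. The strongest region of the window was an SCLC-P site, 26 kb upstream at chr4:1766889-1767647, which 8 SCLC-P lists held and which carries an octamer match. POU2F3 folds were 11.3 in NCI-H526 and 10.2 in NCI-H1048 with DMSO, and 6.09 and 11.0 with AU-15330. MM1.S POU2AF1 was the one myeloma list with a region there, at 6.19, and lost it with AU-15330. Farther upstream, between TACC3 and FGFR3 (chr4:1748654-1749006) NCI-H929 had POU2AF1 at 6.14 and IRF4 at 4.76, MM1.S had POU2AF1 at 3.51, and no SCLC-P list had a region.

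ITGB7, the integrin gene that MAF is known to raise, carried regions from its start to its 3′ end in both lines. The MM1.S POU2AF1 list had 5 regions that overlapped the body, MM1.S IRF4 2, NCI-H929 POU2AF1 3 and NCI-H929 IRF4 2, while a single SCLC-P list had 1. Folds were low, for example 2.32 at the MM1.S POU2AF1 region 9.26 kb inside the gene, but this region had a local background of 9.56, a value that 0.0546% of the list reached. The highest local background was 6.33 for NCI-H929 POU2AF1 (0.637% of the list at or above it), 5.03 for MM1.S IRF4 (0.045%) and 4.3 for NCI-H929 IRF4 (1.69%). The highest ITGB7 region thus lay in the top 2% of every myeloma DMSO list by local background, each maximum being picked from 8 to 14 regions. Maxima of other members also reached the top 2% in some of these lists, for example CCND2 at 0.265% in MM1.S POU2AF1 and MAF at 1.78% in NCI-H929 IRF4. For both proteins the ITGB7 maximum was higher in MM1.S. The median over the ITGB7 regions went the other way. It was 1.97 in MM1.S and 2.37 in NCI-H929 for POU2AF1, and 2.19 and 2.94 for IRF4. At the intron site whose sequence holds an ETS-IRF composite (chr12:53199703-53200947), IRF4 levels were 27.8 (21.3 to 35.7) in MM1.S and 19.6 (14.5 to 26.0) in NCI-H929, with overlapping intervals.

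No region on the ITGB7 body was kept with AU-15330. In MM1.S POU2AF1, 0 of 5 body regions and 8 of 9 flank regions were kept, where over all protein-coding genes the shares were 44.6% in bodies and 47.5% in flanks. An exact interval for 0 of 5 reaches 52.2%, so the MM1.S body count is too small to show a difference from all genes. In NCI-H929 POU2AF1 the ITGB7 counts were 0 of 3 and 3 of 7 (50.8% and 53.4% over all genes), also too few to show a difference. IRF4 kept 0 of 2 body and 1 of 6 flank regions in MM1.S and 0 of 2 and 0 of 8 in NCI-H929, lists in which few regions of any gene were kept. This split was looked at after its values were seen. Just past the 3′ end, in the site chr12:53189916-53190645, MM1.S kept both proteins, at POU2AF1 levels of 33.4 (26.3 to 41.9) with DMSO and 14.4 (9.58 to 20.8) with AU-15330, and the local background there was 8.62 and 3.71. The NCI-H929 regions at this site (20.1 for POU2AF1 and 18.4 for IRF4) were lost. The promoter between CSAD and ZNF740 (chr12:53180164-53181279) had POU2AF1 folds of 4.76 in MM1.S and 5.62 in NCI-H929, was kept in both, and held 5 SCLC-P lists with a fold of up to 13.9. The promoter of MFSD5 in the same window kept POU2AF1 in both lines, at folds of 7.15 and 6.13 in MM1.S and 4.62 and 6.35 in NCI-H929.

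**Figure D2:**
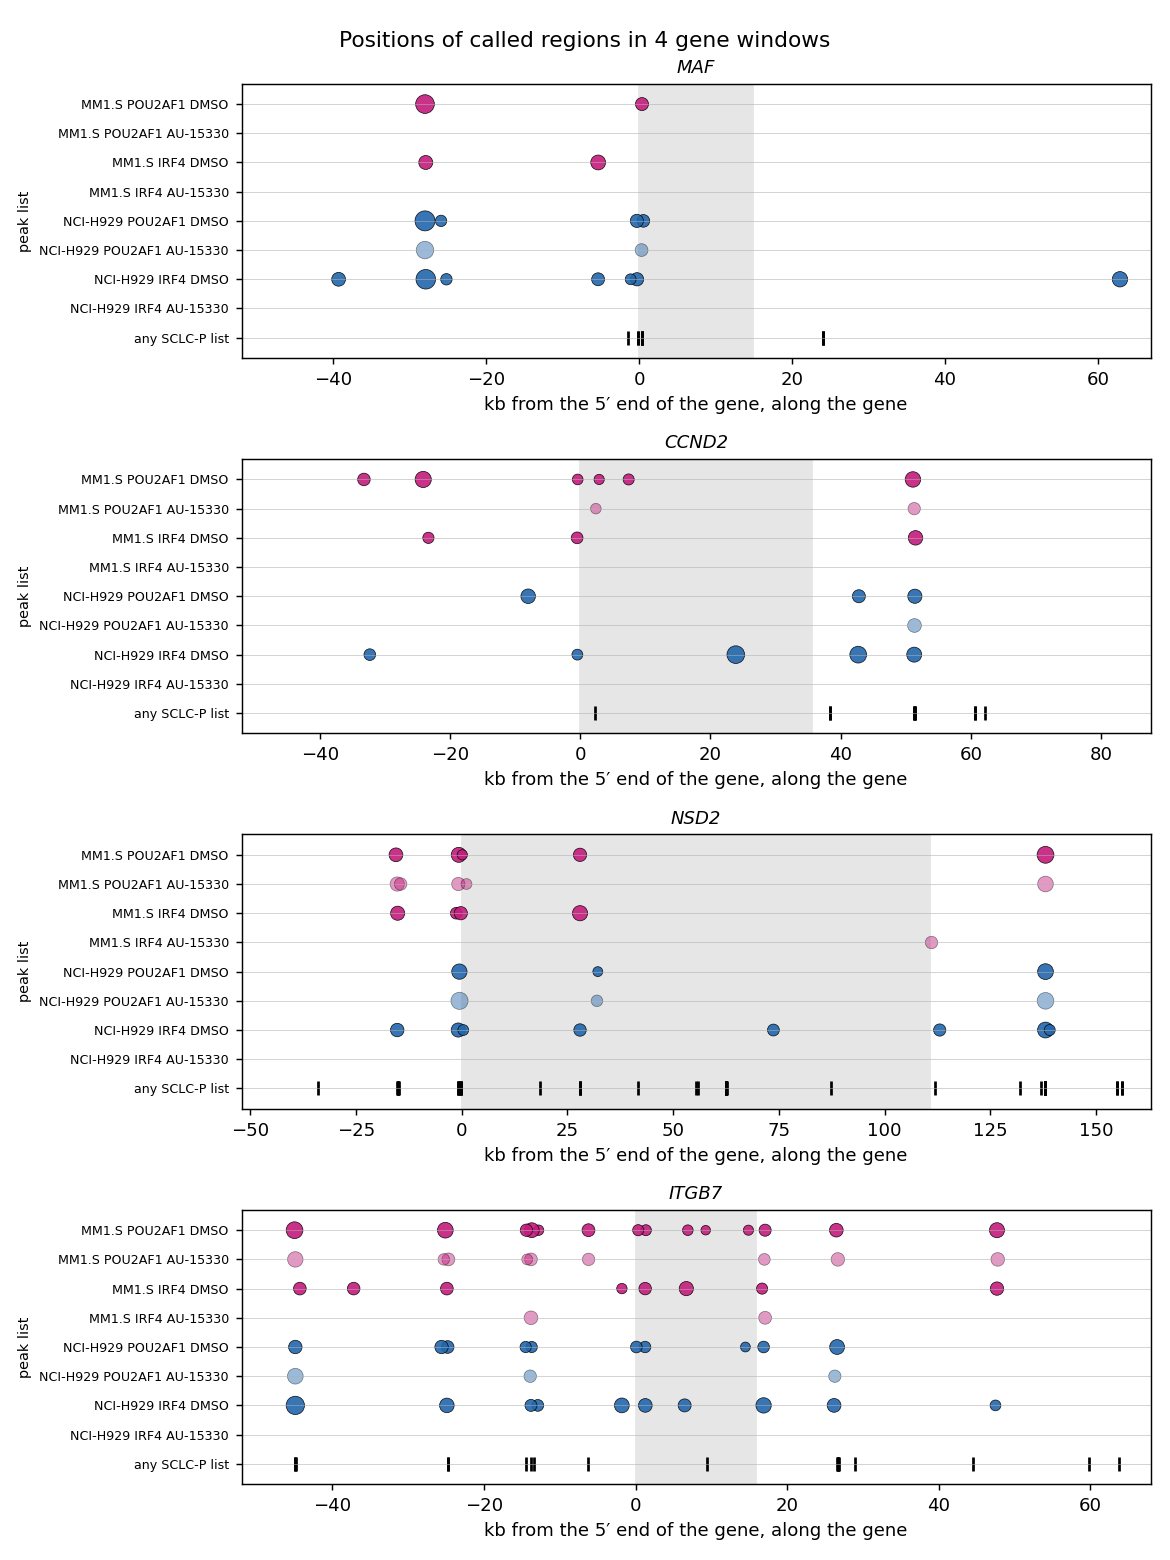
Distance in kb of each called summit from the 5′ end of MAF, CCND2, NSD2 and ITGB7, along the gene, in the 8 myeloma lists, with the gene body shaded and the area of a circle proportional to its fold (MM1.S pink, NCI-H929 blue, AU-15330 paler). The black ticks give regions of any SCLC-P list, which are absent 28 kb upstream of MAF, and the ITGB7 body is empty in the 4 AU-15330 rows.

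**Figure D3:**
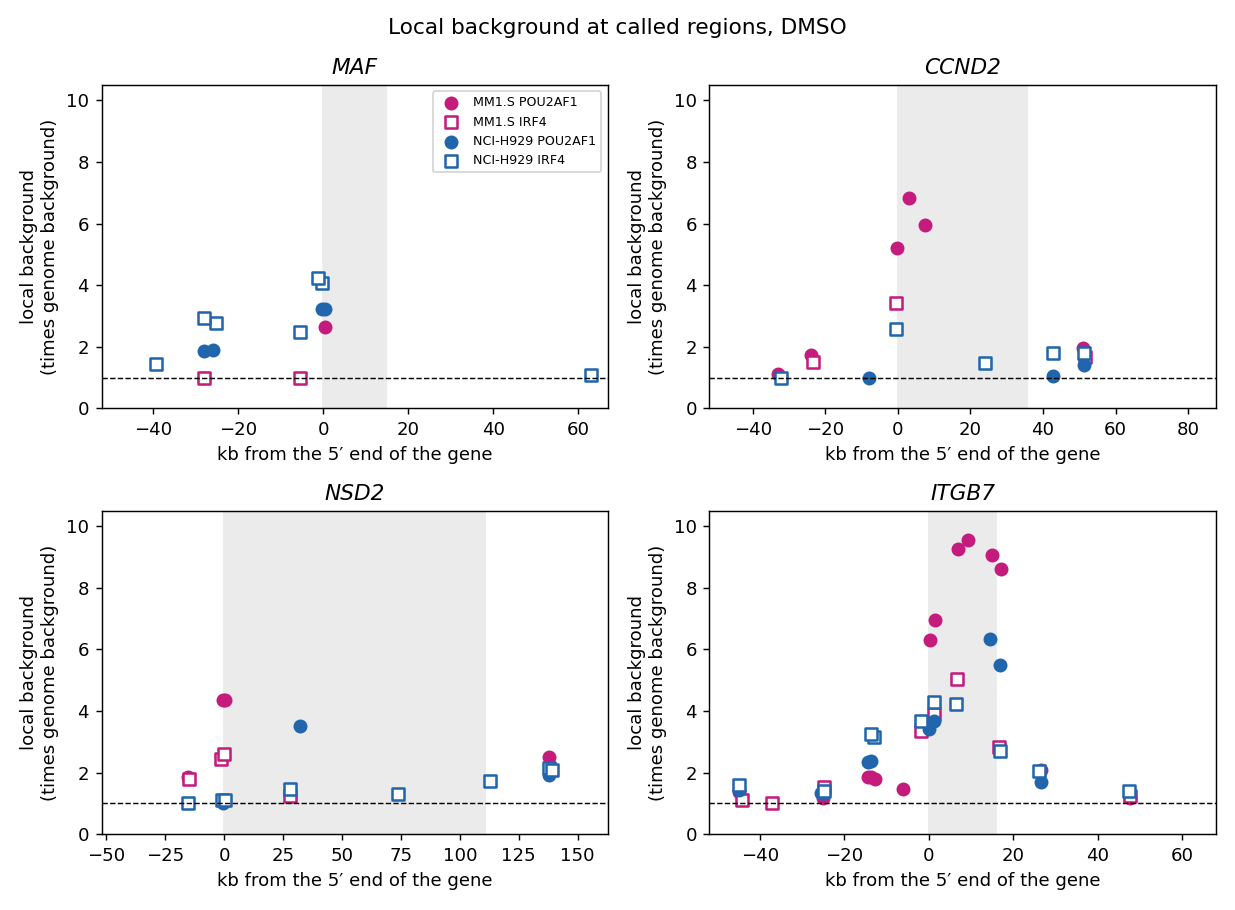
Local background of each DMSO region of the 4 myeloma lists against its distance from the gene start, with circles for POU2AF1 and squares for IRF4. The unit is the genome background of the library (dashed line at 1, the lowest value possible). MM1.S POU2AF1 reaches 6.84 at CCND2 and 9.56 at ITGB7, and at the NSD2 start it stands at 4.36 while NCI-H929 POU2AF1 stands at 1.0.

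AU-15330 left few IRF4 regions in these windows in either line and more of the POU2AF1 regions. Of the MM1.S POU2AF1 regions 19 of 42 were kept, 45.2% (29.8 to 61.3) against 33.7% of the whole list, and of the NCI-H929 POU2AF1 regions 16 of 32, 50% (31.9 to 68.1) against 38.4%. MM1.S IRF4 kept 2 of 23, 8.7% (1.07 to 28.0) against 9.76%, and NCI-H929 IRF4 kept 0 of 47, with an upper bound of 7.55%, against 0.888%. The 4 intervals held the share of the whole list, so no loss particular to these genes was detectable. Counting any region of the AU-15330 lists, whether or not it was there with DMSO, 6 of the 7 genes had one for MM1.S POU2AF1 (82.0% of all genes), 3 for MM1.S IRF4 (46.0%), 7 for NCI-H929 POU2AF1 (78.6%) and 1 for NCI-H929 IRF4 (13.2%), the last a region in the CCND3 window that the DMSO list lacked. Every member region of these DMSO lists except 2 in NCI-H929 IRF4 would have passed the weakest p-value of the treated list at the depth of that library, had its level not changed.

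Distance from a transcript start split the kept from the lost POU2AF1 regions, in the windows as in the whole lists. In MM1.S, 15 of 24 promoter regions were kept, 62.5% (40.6 to 81.2) against 68.6% of all promoter regions, and 4 of 18 distal regions, 22.2% (6.41 to 47.6) against 16.2%. In NCI-H929, 13 of 20 promoter regions were kept, 65.0% (40.8 to 84.6) against 74.6%, and 3 of 12 distal regions, 25.0% (5.49 to 57.2) against 16.6%. Within either class the member regions were kept at shares near those of the list. This split was chosen after the data were seen. At kept POU2AF1 regions the level with AU-15330 was 0.866 times that with DMSO at the median in MM1.S, lower at 15 of 19 regions, and 1.03 times in NCI-H929, lower at 8 of 16. Over the whole lists these medians were 0.808 and 0.979.

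**Figure D4:**
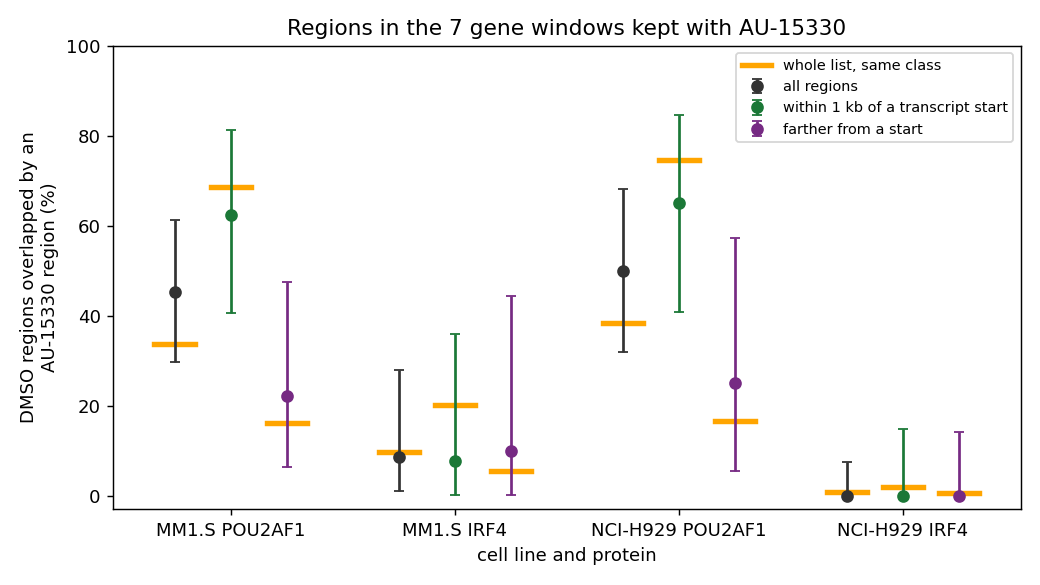
Share in percent of DMSO regions in the 7 windows that an AU-15330 region overlapped, for each line and protein, over all regions and split at 1 kb from a transcript start, with exact 95% intervals (counting error only). Orange bars give the same share over the whole list, and each interval in the plot holds its orange bar.

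The SCLC-P pairs split into losses and a gain. NCI-H526 POU2F3 kept 5 of 35 regions, 14.3% (4.81 to 30.3) against 16.7%, and HA-POU2F3 3 of 25, 12.0% (2.55 to 31.2) against 14.6%. HA-POU2AF2 kept 0 of 18 (upper bound 18.5%) against 1.26%, although 12 of the 18 would have been callable at the depth of the treated library. In NCI-H1048, HA-POU2F3 kept 1 of 4 against 7.72%, and the unnamed HA protein kept 0 of 5 against 1.95%. The POU2F3 antibody pair of NCI-H1048 went the other way, from 16 regions with DMSO to 35 with AU-15330. It kept 13 of 16, 81.2% (54.4 to 96.0) against 44.6%, at a median level ratio of 1.78 with all 13 regions higher, and the whole list had a ratio of 1.27 and also grew, from 38036 to 51408 regions. Its promoter regions were all kept, 10 of 10 against 90.3% of the list, and 3 of 6 distal regions against 33.5%. The genome background of the treated library was higher, at 3.04 stacked reads against 2.27 with DMSO. The part of this depth in the larger number of regions was not tested.

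Matches to known motifs within 100 bases of a summit were few in the windows. The octamer core TTTGCAT, on either strand, was present at 3 of 42 MM1.S POU2AF1 regions (7.14%, whole list 7.29%) and 2 of 32 in NCI-H929 (6.25%, list 7.99%). At POU2F3 regions it was present at 9 of 35 in NCI-H526 (25.7%, exact interval 12.5 to 43.3, list 46.9%) and 4 of 16 in NCI-H1048 (25.0%, 7.27 to 52.4, list 44.4%). The NCI-H526 interval lay below its list, where promoter regions made up 13.8% against 40% in the windows. Tandem IRF letters GAAANNGAAA were present at 4 of 23 MM1.S IRF4 regions (17.4%, list 10.9%) and 5 of 47 in NCI-H929 (10.6%, list 11.2%), and the ETS-IRF composite GGAANNGAAA at 2 of 23 (8.7%, list 6.62%) and 0 of 47 (list 4.89%). The AP-1-IRF composite TGANNNNGAAA was present at 0 of 23 MM1.S IRF4 regions (list 9.06%) and 1 of 47 in NCI-H929 (2.13%, list 9.4%). A MAF element, TGCTGANNNNGCA, was at none of the member regions, with 0.413% in the MM1.S POU2AF1 list and 0.438% in the MM1.S IRF4 list, which says only that these letters are not within 100 bases of these summits. The composite letters can overlap one another at a site.

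With DMSO most genes that work with the members had a region, as most genes did. The lists below are in the order MM1.S POU2AF1, MM1.S IRF4, NCI-H929 POU2AF1 and NCI-H929 IRF4. Of all protein-coding genes, 89.3%, 85.4%, 87.2% and 94.6% had a region within 50 kb with DMSO. With AU-15330 the shares of all genes were 82.0%, 46.0%, 78.6% and 13.2%. Of 16 genes of the cyclin D and RB pathway, which runs from CDK4 and CDK6 through RB1 to the E2F factors, 16 had a region within 50 kb in MM1.S POU2AF1, 14 in MM1.S IRF4 and 16 in each NCI-H929 list with DMSO. With AU-15330 the counts were 15, 10, 16 and 0, the last in the NCI-H929 IRF4 list. The genes without a region in MM1.S IRF4, named after their values were seen, were CDKN2A and CDKN2C, inhibitors of CDK4 and CDK6, which had 7 and 6 in NCI-H929 IRF4. Of 8 MAF family and MAF target genes, 8 had a region in each of the 4 DMSO lists, and 7, 4, 7 and 3 with AU-15330. Of 7 genes related to FGFR3 and NSD2, 6 had one in each MM1.S DMSO list and 7 in each NCI-H929 DMSO list, FGFRL1 being the gene without a region in MM1.S, and with AU-15330 the counts were 6, 1, 7 and 0. Of 6 partners and ligands of ITGB7, 5 had one in 3 of these lists and 6 in NCI-H929 IRF4, the difference being VCAM1, and with AU-15330 5, 3, 5 and 0.

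As a description over the 20 lists, which share cell lines and differ in size, the 2 genes on other chromosomes with the most similar pattern were found for each member, on log2 of the regions in the window plus 1 over the size of the list, among genes with a region in at least 4 of the 8 myeloma lists. For CCND2 they were HOXB4 (Pearson r = 0.98) and LZTFL1 (0.97), for MAF OSM and OR6N2 (0.96 each), and for ITGB7 E2F4 and ELMO3 (0.96 each), neighboring genes that share their regions. CCND1 went with BLVRA (0.95) and NIT2 (0.94), CCND3 with TP53TG3B and TP53TG3E (0.95 each), near-identical copies that cannot be told apart, NSD2 with KIAA1586 and AEBP1 (0.97 each), and FGFR3 with GLO1 and ZNF417 (0.96 each). After each list was centered on its mean, the coefficients were 0.31 for both CCND3 genes and 0.28 for AEBP1, and 0.93 for HOXB4 and 0.92 for E2F4.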

How the data were processed

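ChIP-seq peak lists of 20 libraries (10 pairs of DMSO and AU-15330, 1 library per condition) were analysed. The submitters' processing notes name Trimmomatic 0.39 for the series. Per the study's methods, the authors trimmed the reads, used BWA for alignment to GRCh38, removed duplicates with Picard and SAMtools, called peaks per library with MACS2 at a q-value of 0.05, without a control named, and removed blacklisted regions. The deposited columns hold a score, the fold enrichment (a ratio), the −log10 p-value and the −log10 q-value, and in all lists but 2 a summit. No deposited column was left unused for want of a sample.

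Only chromosomes 1 to 22, X and Y entered. Groups came from the sample labels. Windows, transcript starts and features came from GENCODE 44, and sequence from the GRCh38 reference. Pileup and local background were recovered from fold and p-value (tolerance 0.002 in −log10 p) and checked on simulated data. Overlap needed 1 base. Shares have exact Clopper-Pearson 95% intervals, and levels exact Poisson ones. No test could be made. Python 3.11.15, pandas 2.3.3 and SciPy 1.17.1 were used.

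The members, gene lists, motifs and alternatives were chosen with earlier results of these data known. Regions were named by rule: the highest fold for each gene in each myeloma DMSO list and in the SCLC-P lists, regions of both proteins in 1 line only, and starts of the 7 genes, up to 30 by fold. Sites inside NSD2, CCND2, FGFR3 and ITGB7, at both ends of ITGB7 and at the 5′ end of CCND3 that this rule did not name were chosen after their values were seen. Alternatives were windows of 10 or 200 kb, −log10 q of 5, a fold of 5, 50% coverage, summits within 200 bases and lists cut to equal size.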

Additional observations from a re-analysis of the deposited data

How the results depend on the processing

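With windows of 10 kb the MM1.S POU2AF1, MM1.S IRF4, NCI-H929 POU2AF1 and NCI-H929 IRF4 DMSO lists held 21, 13, 16 and 23 regions, and with 200 kb 85, 57, 65 and 114. With a fold of at least 5 they held 15, 8, 12 and 17, and with −log10 q of at least 5 MM1.S IRF4 held 14. Fewer regions or other window lengths enter by construction. The density over the genome moved by less than 1.5 times in all 16 alternatives of these lists, to between 1.9 and 4.62. Without ITGB7, the gene with the most regions, 28, 15, 22 and 37 regions were left and the kept shares were 39.3%, 6.67%, 59.1% and 0%. The kept share moved outside its interval for MM1.S IRF4, to 0% (0 of 14) with −log10 q of at least 5 in both lists and to 33.3% (1 of 3) with lists of equal size. In splits added after the data were seen it was 62.5% for promoter and 22.2% for distal MM1.S POU2AF1 regions, and 25.0% for distal NCI-H929 POU2AF1 regions, and it stayed within its interval in the other 35 alternatives. The share found in the other line moved for MM1.S POU2AF1, to 38.1% with 50% coverage, and for MM1.S IRF4, to 52.2% with lists of equal size, and not in the other 18, although with windows of 10 kb the NCI-H929 POU2AF1 interval held the share of its list. The level ratio of MM1.S IRF4 rests on 2 regions and was 1.0 from the deposited folds, against 0.65 from the pileups. The causes of these moves were not tested. No paired analysis was possible because the labels number no replicates. A single library per condition limits every comparison, and counts below about 10 regions have wide intervals.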
